A study of Mus musculus with 32 samples.

Results

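The 42 genes described here encode the lysosome and the pathways that feed it: lysosomal membrane proteins, subunits of its proton pump, its proteases and other hydrolases, the enzymes and receptors of the mannose 6-phosphate route, the transcription factors Tfeb and Tfe3, and the core of autophagy. They were taken from the deposited read-count table by gene name, 42 of 57010 genes, and all 42 had enough counts to be among the 20298 genes tested. Lysosomes are acidic compartments in which proteins, sugars and lipids are broken down. Most of their soluble enzymes receive a mannose 6-phosphate tag in the Golgi and are carried to the lysosome by receptors that recognise it, while autophagy delivers the cell's own proteins and organelles. In brain, neurons and microglia depend on this system, and inherited loss of many of these genes causes storage disease in humans, often with neurodegeneration.

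RNA was sequenced from brain tissue homogenate of 32 mice that carry human APOE in place of the mouse gene. The mice were homozygous for APOE4 (E4/4) or APOE3 (E3/3), so human APOE was shared by all groups, controls included. Each genotype received, every day for 12 weeks, either D4F, a peptide modelled on apolipoprotein A-I, the main protein of HDL, or the vehicle, PBS. The groups were E4/4 D4F, E4/4 PBS, E3/3 D4F and E3/3 PBS, with 8 mice each, 4 females and 4 males. The mice were 10.5 ± 0.1 months old at the start and 13.2 ± 0.1 months old at the end. P-values measure the spread between these mice.

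The libraries held 17.77 to 45.06 M counts (M, mega) and were divided at 26 M into shallower and deeper ones (depth class). The shallower ones were 2 of 8 E4/4 D4F libraries, 1 of 8 E4/4 PBS, 2 of 8 E3/3 D4F and 6 of 8 E3/3 PBS, so every comparison with E3/3 PBS also sets deeper against shallower libraries. Markers of neurons, astrocytes, oligodendrocytes and microglia were present in every group. The 6 neuron markers summed to 4310 to 7280 CPM (counts per M counts of the library, scaled by TMM) in E4/4 PBS and 4240 to 6790 CPM in E3/3 PBS, and the 10 microglia markers to 316 to 397 CPM and 307 to 481 CPM in the same groups. The 5 blood markers were all called lower in E4/4 PBS and summed to 3.66 to 15 CPM there, against 7.67 to 113 CPM in E3/3 PBS. All markers of the 10 lists had enough counts to be tested except the liver marker Fgb, whose values were not examined. These are bulk samples, in which fewer cells of a type and less RNA per cell cannot be told apart.

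Part of this pathway shares a short DNA element. Tfeb and Tfe3 bind an E-box, CACGTG, which in many lysosomal promoters is extended to TCACGTGA. Both motifs read the same on either strand, and the longer one contains the shorter. Promoter windows from RefSeq on GRCm38.p6, 250 bases before to 50 after the start site, were found for 36 of the 42 genes, and not for Atp6v1b2, Ctsb, M6pr, Vps35, Becn1 and Map1lc3a. TCACGTGA occurred in 8 of the 36 (22.2%), against 1.12% of 27025 genes with a window, and CACGTG in 16 of the 36 (44.4%), against 8.09%. A match is a description of these letters and not a binding site. One stretch around the motif, in capitals, is shown for each of the 8 genes because they hold the longer motif. They belong to the membrane proteins, the pump, the proteases, the glycosidases and the mannose 6-phosphate route. They are written 5′ to 3′ on the gene's strand.
Mcoln1, chr8:3500462-3500491, plus strand: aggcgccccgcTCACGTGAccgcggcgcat
Atp6v0d1, chr8:105566050-105566079, minus strand: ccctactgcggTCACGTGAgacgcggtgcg
Atp6v1a, chr16:44139373-44139402, minus strand: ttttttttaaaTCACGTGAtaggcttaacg
Ctsa, chr2:164833749-164833778, plus strand: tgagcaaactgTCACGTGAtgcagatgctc
Ctsd, chr7:142387908-142387937, minus strand: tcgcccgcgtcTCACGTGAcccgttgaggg
Gla, chrX:134601182-134601211, minus strand: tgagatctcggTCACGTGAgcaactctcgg
Gnptg, chr17:25240120-25240149, minus strand: ccggctgtcacTCACGTGAccgtgagaccc
Igf2r, chr17:12769737-12769766, minus strand: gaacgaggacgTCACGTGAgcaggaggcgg
Relative to the start site, the motif shown was centred at -42 in Mcoln1, -45 in Igf2r, -95 in Ctsd and 6 in Gnptg. Ctsa, Gla and Igf2r each held a further copy. Of these 8 genes, Mcoln1 alone was called in the genotype comparison given below.

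The pathway was well expressed, with a relative spread below that of the median gene. Levels between genes are given as CPM per kilobase of merged exons, averaged over the 32 libraries. The median of the 42 genes was 17.1 CPM per kb, against 3.2 CPM per kb over 19173 tested genes with a length. The median coefficient of variation across libraries was 9.84%, against 18.1% over all 20298 genes tested. It ran from 4.64% for Becn1, which helps form the lipid kinase that starts autophagosomes, to 16.3% for the cysteine protease Ctsz. The median level of the 42 genes was also higher, and genes of matched level were not compared. The smaller spread is therefore not shown to be particular to the pathway.

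Psap, the precursor of the saposins that help enzymes reach sphingolipids, had the highest level at 578 ± 35.0 CPM per kb (SD over 32 libraries). Sqstm1, the autophagy receptor also called p62, followed at 132 ± 9.25 CPM per kb. The pump subunits Atp6v0d1 (124 ± 9.34 CPM per kb) and Atp6v1b2 (117 ± 11.7 CPM per kb) and the membrane glycoprotein Lamp1 (120 ± 7.02 CPM per kb) did not differ from one another beyond their spread. The LC3 protein gene Map1lc3a stood at 110 CPM per kb and the protease Ctsb at 103 ± 12.7 CPM per kb. Levels then fell through Gabarap (81.9), Atp6v0a1 (76.9), Ctsd (70.6), Atp6v1a (56.3), Gnptg (38.6), Ctsz (37.7), Hexa (29.3), Ppt1 (29.2), Map1lc3b (27.4), Ctsa (25.6) and M6pr (23.4), all in CPM per kb. Neu1, Tpp1, Becn1, Grn, Vps35, Ulk1, Ctsf, Ctsl, Gnptab and Mcoln1 lay between 17.9 and 11.8 CPM per kb.

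The lowest levels belonged to Tfeb (1.52 ± 0.22 CPM per kb) and Lipa, the acid lipase that releases cholesterol from its esters (2.72 ± 0.301 CPM per kb). Atg7 (3.12), Gusb (3.4), Naglu (3.41), Igf2r (4.12), Gla (4.23), Litaf (4.6) and Nagpa (4.97) were also under 5 CPM per kb. Tfe3 (5.17), Lamp2 (6.09), Ctso (6.62), Glb1 (6.82) and Atg5 (8.76 CPM per kb) lay above them. Within the tagging enzyme, Gnptg, which encodes the gamma subunit, stood at 38.6 ± 4.03 CPM per kb and Gnptab, which encodes the catalytic alpha and beta subunits, at 12.2 ± 0.798 CPM per kb. Gnptg shares 49.5% of its exon bases with Unkl on the opposite strand, Becn1 43.9% with Cntd1, also on the opposite strand, and Ctsd 34.4% with Gm49369 on its own strand. Ctsl shares 26.8%, with Gm49230 on its own strand and Gm47123 on the opposite one. Ctsa (17.4%), Sqstm1 (17.3%), Ctsb (12.8%) and Hexa (12.8%) overlap genes on the opposite strand, and other members share smaller parts. Sqstm1, Ctsb and Hexa are among the genes called by genotype below. Whether the counting used strand is not given in the sources used here, so reads of neighbours may affect the levels of all these genes.

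**Figure D1:**
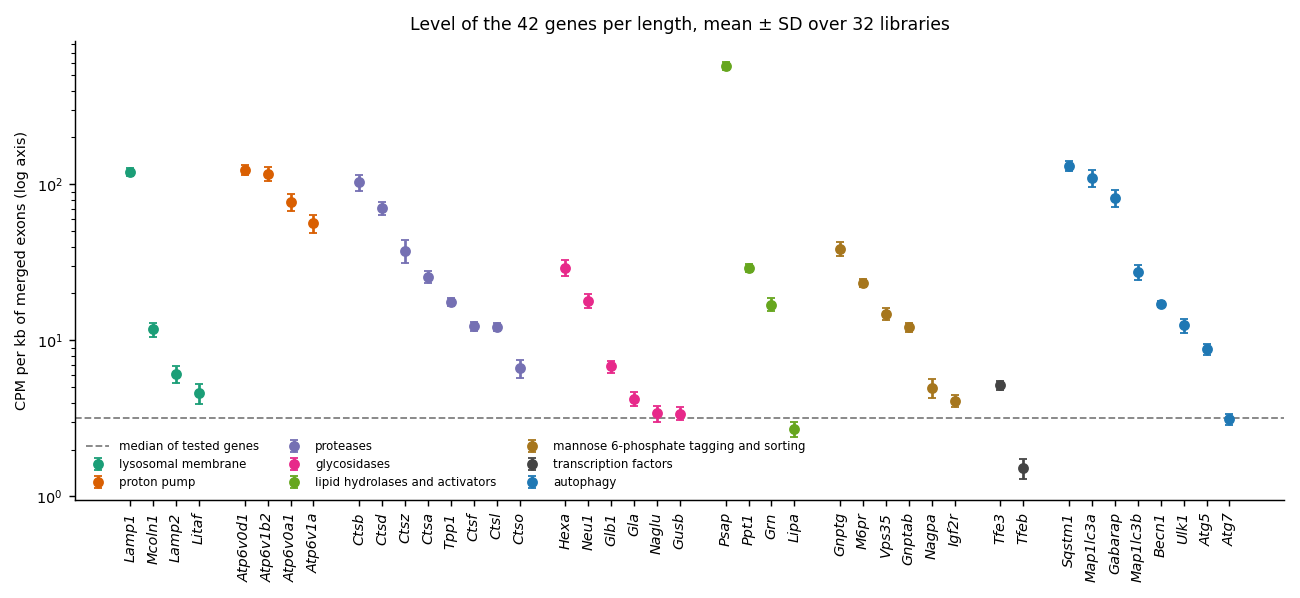
Level of each gene in CPM per kb of merged exons (log axis) as mean and SD over 32 libraries, grouped by role, with the median of tested genes as a dashed line. Psap stands highest at 578 CPM per kb and Tfeb lowest at 1.52 CPM per kb.

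The first comparison set E4/4 PBS mice against E3/3 PBS mice, and asked how the genotypes differ without treatment. Of the 42 genes 13 were called (edgeR's quasi-likelihood test at an adjusted p below 0.05), 3 higher and 10 lower in E4/4 PBS. Over all genes tested 20.4% were called, 9.89% higher and 10.5% lower. The median log2 difference of the 42 genes was -0.04, against 0.02 over all genes. The changes were small, between -0.39 and 0.38 on the log2 scale.

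The largest fall was in the proton pump. Atp6v0a1 (chr11:101009452-101063719, GENCODE on GRCm38, as for the gene positions below) encodes the membrane subunit a1 of the pump that acidifies lysosomes and synaptic vesicles. It measured 525, 414, 433 and 426 CPM in E4/4 PBS females and 447, 437, 443 and 450 CPM in E4/4 PBS males, against 628, 564, 634 and 531 CPM in E3/3 PBS females and 639, 581, 538 and 579 CPM in E3/3 PBS males. Every E4/4 PBS library was below every E3/3 PBS library. The groups did not overlap, in either direction, for 1.02% of all genes tested. The log2 difference was -0.39 (SE 0.0529, edgeR adjusted p = 3.3e-05), and the 32 fits that each left out 1 library gave -0.435 to -0.36, all called. The other 3 pump subunits, Atp6v0d1 of the membrane part and Atp6v1a and Atp6v1b2 of the part that splits ATP, gave log2 differences of -0.04, 0.07 and 0.02 and were not called.

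Depth moved with this gene. The highest E4/4 PBS library, 525 CPM, was the single one of its group below 26 M counts, where the other 7 lay between 414 and 450 CPM. The 2 deeper E3/3 PBS libraries had the lowest values of their group, 531 and 538 CPM, where the 6 shallower ones lay between 564 and 639 CPM. With depth class in the model the log2 difference was -0.32 (edgeR adjusted p = 0.00199), and in the libraries above 26 M counts alone it was -0.28 (adjusted p = 0.0753).

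Ctso and Litaf had the smallest p of the 3 genes that were higher. Ctso (chr3:81932601-81956725), a cysteine protease of the cathepsin family, ran from a lowest value of 30.8 CPM over a median of 38.3 CPM to a highest of 41.6 CPM in E4/4 PBS, against 26.4, 29.8 and 33.7 CPM in E3/3 PBS. The lowest E4/4 PBS value was again the shallow library, and the other 7 were above every E3/3 PBS library. The log2 difference was 0.34 (SE 0.0574, edgeR adjusted p = 0.000204), 0.324 to 0.386 with each library left out and 0.18 once trends by GC and length were taken out (adjusted p = 0.0437).

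Litaf (chr16:10959275-11066157), a small protein of late endosome and lysosome membranes that is mutated in a human neuropathy, measured 25.2, 27.9, 25.8 and 22.3 CPM in E4/4 PBS females and 27.2, 30.2, 30.8 and 30.1 CPM in E4/4 PBS males. In E3/3 PBS it measured 19.95, 22.51, 18.01 and 26.21 CPM in females and 19.31, 17.02, 22.18 and 22.28 CPM in males. The groups did not overlap in males and overlapped in females. In males the same held for 9 of the 42 genes, against 13.4% of all genes. The log2 difference over both sexes was 0.38 (SE 0.0747, edgeR adjusted p = 0.000649). With depth class in the model it was 0.33, and in the libraries above 26 M counts alone 0.20 (adjusted p = 0.317).

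The third was Lamp2, a membrane glycoprotein that lines lysosomes and takes part in autophagy, with a lowest value of 52.8, a median of 62.7 and a highest of 69.0 CPM in E4/4 PBS, against 41.5, 49.8 and 64.9 CPM in E3/3 PBS (log2 difference 0.29, SE 0.0787, edgeR adjusted p = 0.00892). Depth moved with it within E3/3 PBS, where the 2 deeper libraries had 57.6 and 64.9 CPM and the 6 shallower ones 41.5 to 52.1 CPM. Those 2 lay within the range of the 7 deeper E4/4 PBS libraries, 52.8 to 69.0 CPM. The single shallower E4/4 PBS library, at 63.6 CPM, lay within that range too. As a single library, it cannot show whether E4/4 PBS shifts with depth. Lamp1 was not called, with a log2 difference of -0.06.

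**Figure D2:**
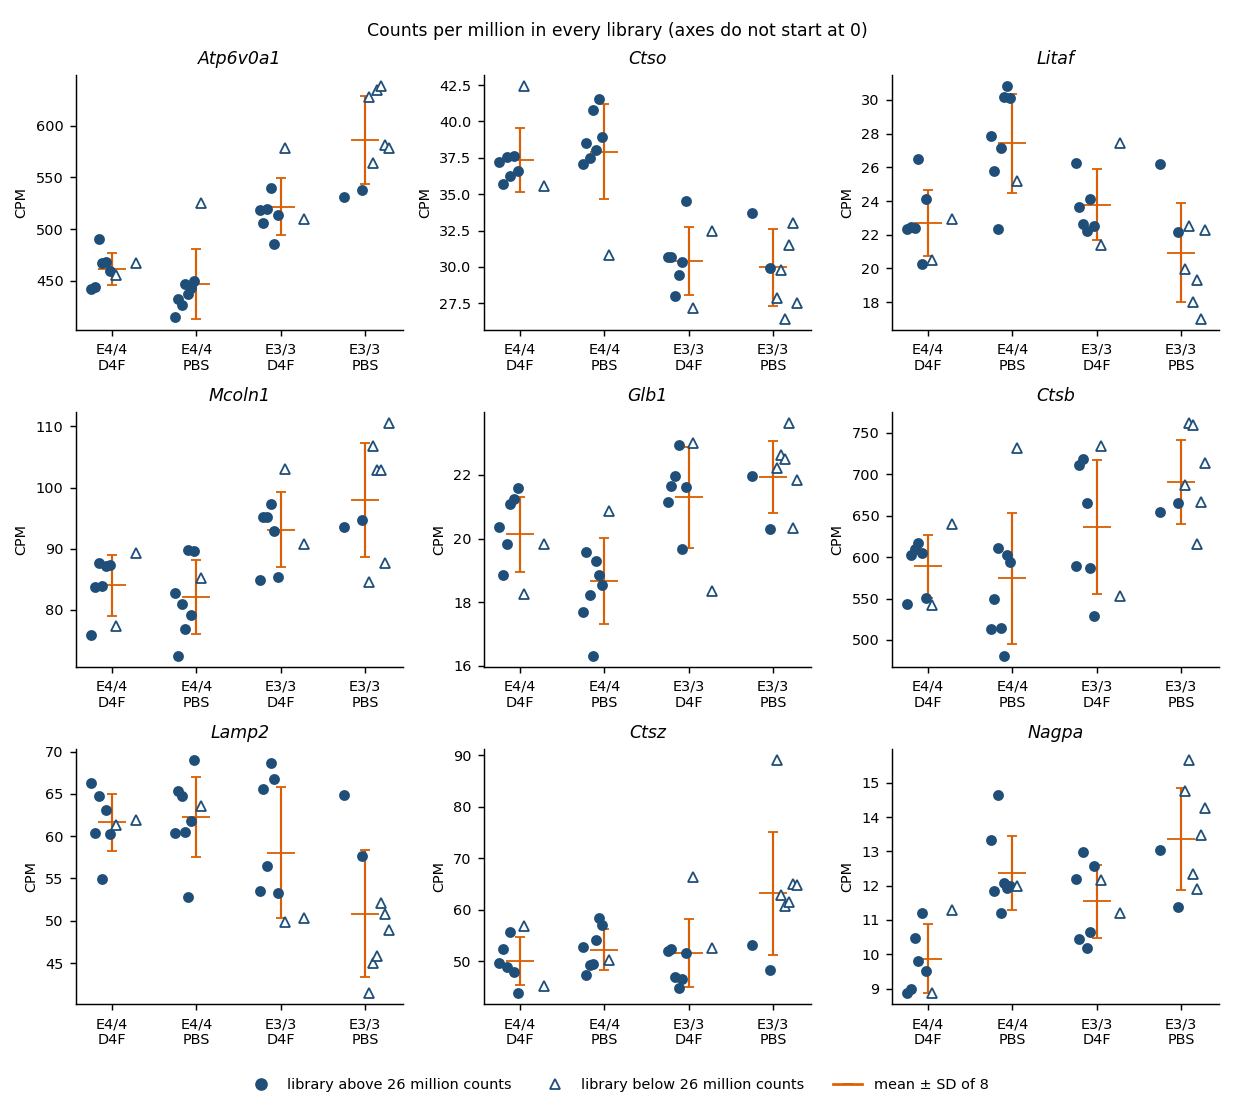
CPM of 9 genes in every library by group, filled circles above and open triangles below 26 M counts, with the mean and SD of 8 libraries in orange. Atp6v0a1 does not overlap between E4/4 PBS (414 to 525 CPM) and E3/3 PBS (531 to 639 CPM), and Nagpa is lowest in E4/4 D4F (8.88 to 11.3 CPM).

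Hydrolases that were called lower broke down proteins and sugar chains. Among the proteases, Ctsb, an abundant cysteine protease, averaged 575 ± 79.0 CPM in E4/4 PBS and 691 ± 51.1 CPM in E3/3 PBS (SD, n = 8 each; log2 -0.27, edgeR adjusted p = 0.00765). Ctsz averaged 52.3 ± 3.94 CPM and 63.2 ± 12.0 CPM in the same groups (log2 -0.27, edgeR adjusted p = 0.0211). Its 2 deeper E3/3 PBS libraries, at 48.3 and 53.3 CPM, lay within the E4/4 PBS range of 47.3 to 58.4 CPM, and 1 E3/3 PBS female stood at 89.0 CPM. The proteases Ctsa, Ctsd, Ctsf, Ctsl and Tpp1 were not called, with log2 differences of -0.12, 0.03, -0.03, 0.07 and -0.02.

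Of the 6 glycosidases, 3 were called lower. Glb1, the beta-galactosidase that trims gangliosides, averaged 18.7 ± 1.35 CPM in E4/4 PBS and 21.9 ± 1.13 CPM in E3/3 PBS (SD, n = 8 each; log2 -0.23, edgeR adjusted p = 0.00294). Neu1, the lysosomal sialidase, averaged 62.8 ± 6.03 CPM and 72.5 ± 5.77 CPM (log2 -0.21, adjusted p = 0.0154). Hexa, the alpha subunit of beta-hexosaminidase, had a log2 difference of -0.19 and an adjusted p of 0.0493, and was called in 3 of the 32 fits with a library left out. Gla, Gusb and Naglu, which remove galactose, glucuronic acid and the sugars of heparan sulfate, gave log2 differences of -0.01, 0.02 and 0.12 without a call. Glb1 shares 5.49% of its exon bases with Tmppe on the same strand.

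The lipid hydrolases and activators gave no call. Their log2 differences were -0.01 for Psap, -0.05 for the growth factor and lysosomal protein Grn, -0.11 for Ppt1, which removes fatty acids from proteins, and 0.09 for Lipa.

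No gene of the mannose 6-phosphate route was called by genotype. The log2 differences were -0.02 for Gnptab and 0.10 for Gnptg, which attach the phosphate under a cap of N-acetylglucosamine, and -0.11 for Nagpa, the enzyme that removes the cap. The receptors that carry tagged enzymes gave 0.09 for M6pr and 0.07 for Igf2r, and the retromer subunit Vps35, which returns receptors to the Golgi, gave -0.05. The 95% interval of the Nagpa difference ran from -0.25 to 0.03.

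Mcoln1 (chr8:3500457-3515232), the channel that releases calcium from lysosomes, was the called gene with a TCACGTGA in its promoter, shown above. It had a lowest value of 72.5, a median of 81.9 and a highest of 89.8 CPM in E4/4 PBS, against 84.5, 98.8 and 110.5 CPM in E3/3 PBS, and the groups overlapped. The log2 difference was -0.25 (SE 0.0576, edgeR adjusted p = 0.00231). Tfeb and Tfe3 were not called: Tfeb had a log2 difference of -0.15 and Tfe3 of -0.12 (adjusted p = 0.0736). Mitf, a factor of the same family from the other lists given below, was called higher in E4/4 PBS (log2 0.46).

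In autophagy, 3 of 8 genes were called, all lower. Map1lc3b, whose product coats the autophagosome, averaged 192 ± 21.8 CPM in E4/4 PBS and 227 ± 9.08 CPM in E3/3 PBS (SD, n = 8 each; log2 -0.24, edgeR adjusted p = 0.0102). Sqstm1, which ties cargo to that coat, averaged 415 ± 31.6 CPM and 466 ± 22.5 CPM (log2 -0.17, adjusted p = 0.0138). Ulk1, the kinase that starts the process, averaged 75.4 ± 5.43 CPM and 87.4 ± 8.82 CPM (log2 -0.21, adjusted p = 0.0184). Becn1, Atg5, Atg7, Map1lc3a and Gabarap gave log2 differences of -0.05, 0.12, -0.10, 0.05 and -0.12 without a call. Atg5 and Atg7 work in attaching LC3 proteins to membranes.

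**Figure D3:**
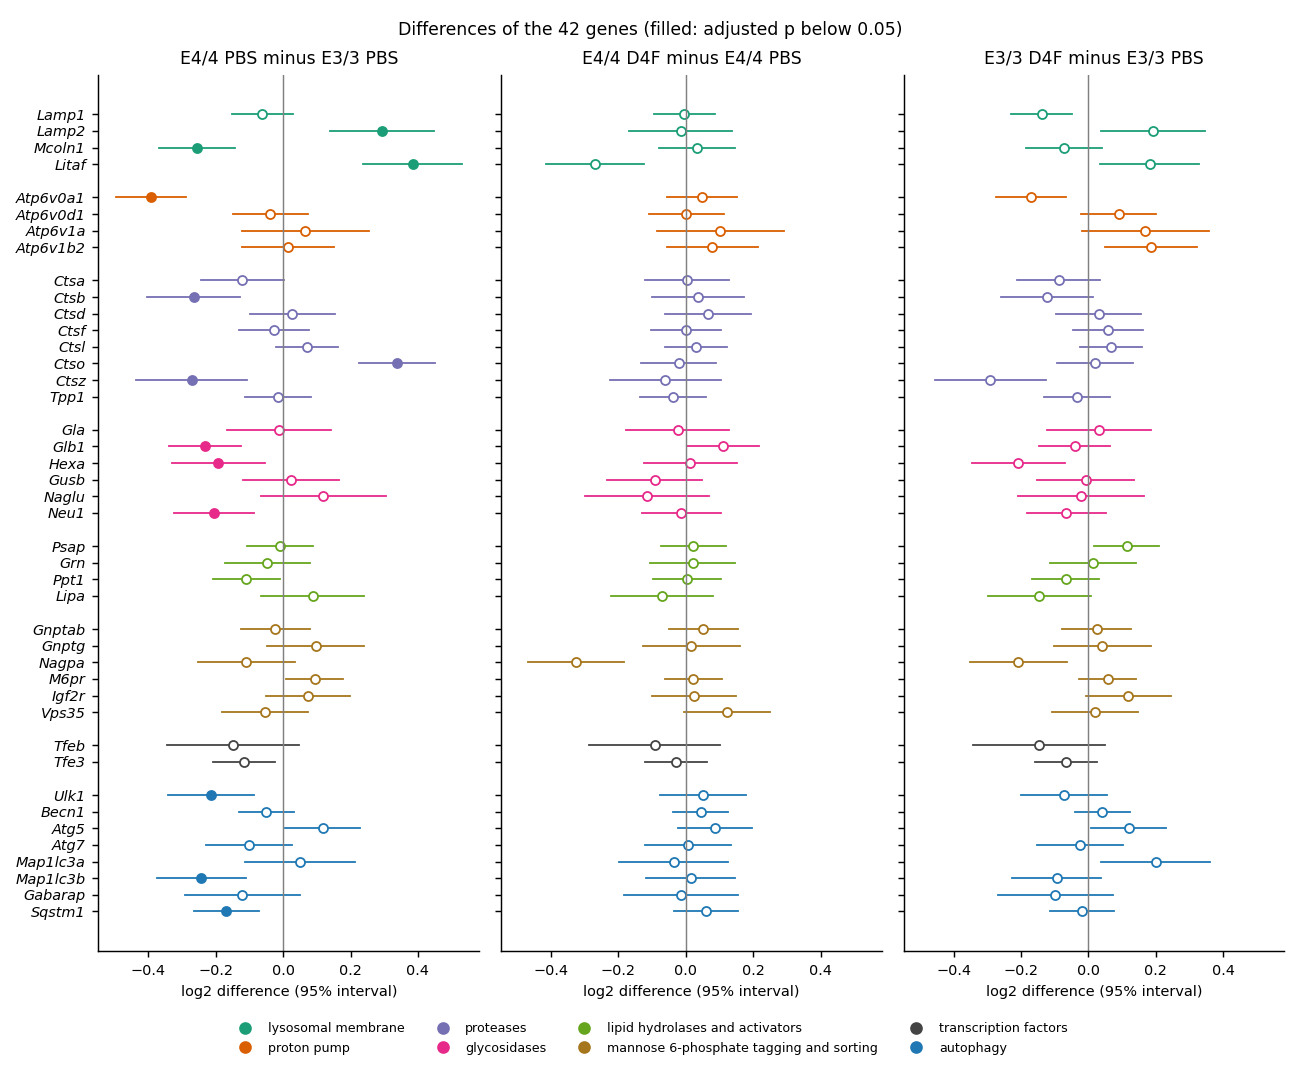
Log2 difference and 95% interval of each gene for genotype in vehicle mice, D4F in E4/4 and D4F in E3/3, coloured by role and filled where called. The 13 filled points all lie in the genotype panel, between -0.39 for Atp6v0a1 and 0.38 for Litaf.

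Base composition and depth moved with the direction of these calls. The 3 genes called higher had a GC content of 38.7% (Lamp2), 41.8% (Ctso) and 46.3% (Litaf), and the 10 called lower had 47.0% (Atp6v0a1) to 58.0% (Ulk1). In a fit cleared of GC and length trends, 10 of the 42 genes were called, against 13.6% of all genes. Of the 13 original calls 6 were kept, namely Atp6v0a1, Ctso, Litaf, Mcoln1, Glb1 and Ctsb. The 4 added were Naglu (log2 0.31) and, lower in E4/4 PBS, Vps35 (-0.29), Ppt1 (-0.21) and Becn1 (-0.14). With depth class in the model 6 of the 42 genes were called (14.3%), against 6.34% of all genes: Atp6v0a1, Ctso, Litaf, Mcoln1, Glb1 and Ulk1. Atp6v0a1, Ctso, Litaf, Mcoln1 and Glb1 were thus called in all 3 fits, though Ctso fell to 0.18 in the one cleared of GC and length trends.

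Within the libraries above 26 M counts, 7 of E4/4 PBS and 2 of E3/3 PBS, none of the 42 genes was called. Atp6v0a1, Ctso, Litaf, Mcoln1 and Glb1 then had log2 differences of -0.28, 0.31, 0.20, -0.20 and -0.19, with adjusted p from 0.0753 to 0.317. The sign was the opposite of that in all libraries for 14 of the 42 genes, among them Ctsz (0.06) and Hexa (0.12), and Lamp2 had 0.04. Lower-depth libraries differed directly from higher-depth ones, within groups, in 0 of the 42 genes and 0.675% of all genes. The smallest adjusted p there was 0.0991, for Ctsa (log2 0.16, lower-depth minus higher-depth).

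**Figure D4:**
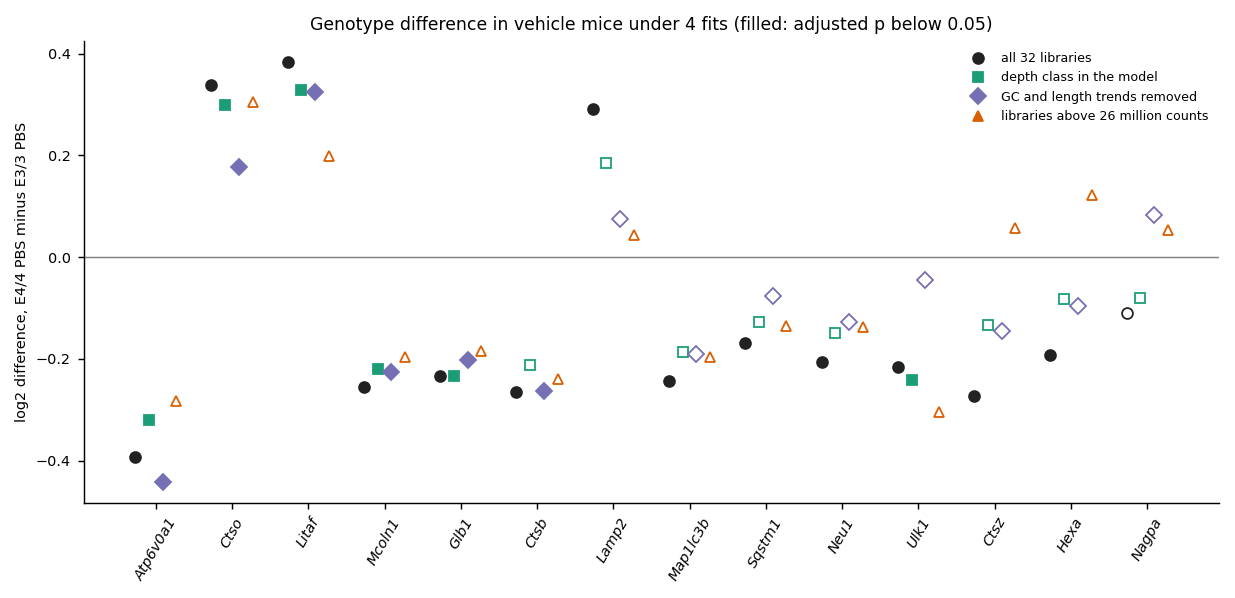
Log2 difference between E4/4 PBS and E3/3 PBS for the 13 called genes and Nagpa in 4 fits, filled where the adjusted p was below 0.05. Ctsz and Hexa change sign in the libraries above 26 M counts, at 0.06 and 0.12.

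Cell type markers also differed between the vehicle groups. Of the neuron markers 3 of 6 were lower in E4/4 PBS, among them Rbfox3 with a log2 difference of -0.47. Of the oligodendrocyte markers, Mog (0.29) and Cnp (0.20) were higher. Of the microglia markers 1 of 10 was higher, Siglech with 0.28. Of the astrocyte markers Aqp4 was higher (0.35) and Aldh1l1 (-0.20) and Aldoc (-0.21) lower, and of the endothelium markers Slco1a4 was higher (0.31) and Flt1 (-0.41) and Cdh5 (-0.31) lower. Single markers of choroid plexus (Aqp1, 1.91) and leukocytes (Ptprc, 0.52) were higher and 1 of liver (Alb, -4.46) lower. The choroid plexus markers summed to 22.3 to 1370 CPM in E4/4 PBS and 7.86 to 266 CPM in E3/3 PBS. Their part in the differences of the lysosomal genes was not tested.

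Other genes of the same pathway, from lists of known members, were also called in both directions in E4/4 PBS against E3/3 PBS. These counts stand against 20.4% of all genes called, which is 6.34% with depth class in the model and 4 genes in the libraries above 26 M counts alone, where these lists were not tested apart. Among 35 other hydrolases and cofactors, 1 was called higher and 5 lower. The galactosylceramidase Galc, which degrades a myelin lipid, was the one higher (log2 0.27), and the asparaginyl protease Lgmn (-0.28) and the sphingomyelinase Smpd1 (-0.26) had the smallest p among those lower. Among 23 other membrane proteins, 7 were higher and 1 lower, led by Cd164 (0.40) and Laptm4a (0.28), with the two-pore channel Tpcn1 (-0.20) the one lower.

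Among 14 other pump subunits, 2 were higher and 2 lower. Atp6v0e (0.19) and Atp6v1h (0.21) were higher, and Atp6v1g2 (-0.49) and Atp6v1d (-0.26) lower. Among 35 sorting and endosome genes, 5 were higher and 6 lower, with Vps4b (0.20) and Ap1s2 (0.68) higher and Vps18 (-0.36) and Hgs (-0.31) lower. Among 36 other autophagy genes, 1 was higher, Gabarapl2 (0.28), and 5 were lower, led by Gabarapl1 (-0.22) and Atg3 (-0.25). Among 23 genes of the nutrient control of Tfeb, 7 were higher, led by Mitf (0.46), a factor of the same family, and the Rag GTPase gene Rragd (0.37). The 3 that were lower were led by Tsc2 (-0.25) and Rptor (-0.21), which act on the kinase mTOR.

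By sex, 5 of the 42 genes were called in vehicle females, against 10.3% of all genes, and 3 in vehicle males, against 3.97%. In females these were Atp6v0a1 (log2 -0.39), Ctso (0.29), Ctsz (-0.41), Mcoln1 (-0.27) and Lamp2 (0.36), and in males Atp6v0a1 (-0.40), Litaf (0.55) and Ctso (0.39). Without E4/4 PBS female 1, the shallow library, 10 genes were called in females, and without E4/4 PBS female 3 or 4, 1 was. A fit with depth class called 1 gene in females and 0 in males, the libraries above 26 M counts 0 in either sex, and the compared groups fitted alone 0 in females and 3 in males. The difference of the genotype effects between females and males called 0 of the 42 genes and 0% of all genes, and 2 of the 42 had an unadjusted p under 0.05, against 5.37% of all genes. DESeq2 and limma-voom also called 0. Litaf, called in males alone, differed by -0.33 between females and males, with an adjusted p of 0.907. Ctsd (-0.31), Grn (-0.25), Ctsf (-0.20) and Ctsz (-0.28) complete the 5 genes with the smallest p in that contrast.

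The pathway lists stand against the same 10.3% and 3.97% of all genes. In males 2 genes of the whole table were called with depth class in the model, and in females 0 with the compared groups fitted alone. Vehicle females had 0 other hydrolases higher and 3 lower, led by Smpd1 (-0.31) and Lgmn (-0.28), and males had 2 higher, Npc2 (0.37) and Galc (0.32), and 1 lower, Lgmn (-0.28). Of the membrane proteins, Cd164 (0.54) and Tmem106b (0.40) were higher and Tpcn1 (-0.30) lower in females, and Laptm4a (0.36) and Cd63 (0.58) higher in males. Of the pump subunits, Atp6ap2 was higher (0.32) and Atp6v1g2 lower (-0.45) in females, and Atp6v1g2 (-0.52) and Atp6v1d (-0.32) lower in males. Of the sorting genes, 5 were higher and 4 lower in females, led by Vps4b (0.30) and Itch (0.41) and by Vps18 (-0.39) and Hgs (-0.35), and the same pair, Vps18 (-0.34) and Hgs (-0.28), was lower in males. Of the autophagy genes, Calcoco1 (-0.27) and Atg3 (-0.26) were lower in females and Gabarapl2 (0.36) higher in males. Of the nutrient control genes, Fnip1 (0.56) and Mitf (0.38) were higher and Tsc2 (-0.26) lower in females, and Mitf (0.54) and Rragd (0.46) higher in males. The difference between the sexes called 0 genes of these lists.

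Across all groups, females minus males gave no call among the 42 genes, against 0.0739% of all genes, and 1 of the 42 had an unadjusted p under 0.05, against 5.47% of all genes. DESeq2 and limma-voom also called 0. The 1 gene was Ctsb, at 645 CPM in females and 600 CPM in males (log2 0.10, edgeR adjusted p = 0.91). Neu1 (0.07), Ctso (-0.06), Gnptg (-0.07) and Vps35 (0.06) followed.

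The next comparison set D4F against PBS in E4/4 mice. By edgeR 0 of the 42 genes were called, and 0% of all genes. DESeq2 and limma-voom also called 0 of the 42. At an unadjusted p under 0.05 there were 3 of the 42 genes (7.14%), against 1.88% of all genes, and the median log2 difference was 0.01.

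The gene that stood farthest from 0 belonged to the tagging route. Nagpa (chr16:5195289-5204012), which uncovers mannose 6-phosphate so that its receptors can bind it, measured 8.88, 8.89, 8.99 and 10.5 CPM in E4/4 D4F females and 9.801, 11.3, 11.19 and 9.503 CPM in E4/4 D4F males. In E4/4 PBS it measured 12.0, 13.3, 11.9 and 14.6 CPM in females and 11.2, 12.1, 11.9 and 12.0 CPM in males. The groups of 8 met only at the highest E4/4 D4F value, 11.3 CPM, and the lowest E4/4 PBS value, 11.2 CPM. The log2 difference was -0.33 (SE 0.073, edgeR unadjusted p = 9.9e-05, adjusted p = 1). It was -0.359 to -0.295 with each library left out and -0.352 to -0.305 under the 10 alternative fits, and was called in none of them.

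Litaf was next, with a lowest value of 20.3, a median of 22.4 and a highest of 26.5 CPM in E4/4 D4F, against 22.3, 27.5 and 30.8 CPM in E4/4 PBS (log2 -0.27, SE 0.0741, edgeR adjusted p = 1). Its groups overlapped. Glb1 (0.11), Vps35 (0.12) and Atg5 (0.09) completed the 5 genes with the smallest p, all with an adjusted p of 1. The other tagging and sorting genes gave log2 differences of 0.05 for Gnptab, and 0.02 for each of Gnptg, M6pr and Igf2r. Atp6v0a1 gave 0.05 and Ctso -0.02. The genotype and D4F comparisons share the E4/4 PBS libraries, so the values of Litaf in them, 0.38 and -0.27, are not independent.

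In E3/3 mice, D4F against PBS called 0 of the 42 genes, against 3.25% of all genes, while 11 of the 42 had an unadjusted p under 0.05 (26.2%), against 19.5% of all genes. Ctsz came closest, averaging 51.7 ± 6.65 CPM in E3/3 D4F and 63.2 ± 12.0 CPM in E3/3 PBS (SD, n = 8 each; log2 -0.29, edgeR adjusted p = 0.0503). It was the 1 gene called with GC and length trends removed, and also with DESeq2's size factors. Atp6v0a1 had a lowest value of 486, a median of 516 and a highest of 579 CPM in E3/3 D4F, against 531, 580 and 639 CPM in E3/3 PBS (log2 -0.17, adjusted p = 0.0647). Lamp1 (-0.14, adjusted p = 0.0828), Hexa (-0.21, 0.0868) and Nagpa (-0.21, 0.0993) followed. Litaf gave 0.18 (adjusted p = 0.165).

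Leaving out single libraries changed this count. Without E3/3 PBS female 4, 7 of the 42 genes were called, and without E3/3 PBS male 3, 5 were, both deeper libraries. Without E3/3 D4F female 4, a shallower library, 3 were called, and without E4/4 PBS female 1, 1 was. DESeq2's test called 3, Ctsz, Atp6v0a1 and Lamp1. The genotype comparison and this one share the E3/3 PBS libraries. Against them, E4/4 PBS and E3/3 D4F were both lower for Ctsz (-0.27 and -0.29), Atp6v0a1 (-0.39 and -0.17) and Hexa (-0.19 and -0.21). Both were higher than E3/3 PBS for Lamp2 (0.29 and 0.19) and Litaf (0.38 and 0.18).

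Beyond the 42 genes, where 3.25% of all genes were called, D4F in E3/3 called 3 of 14 other pump subunits, all higher: Atp6ap2 (log2 0.36), Atp6v0c (0.32) and Atp6v1h (0.30). Of the 36 other autophagy genes 2 were higher, Gabarapl2 (0.27) and Atg10 (0.39), and Calcoco1 was lower (-0.21). Of the other hydrolases Ctsh (-0.45) and Gm2a (-0.22) were lower. Tmem106b, a lysosomal membrane protein, was higher (0.29), as was the early endosome GTPase Rab5a (0.25). Of the nutrient control list 0 of 23 were called. Markers moved as well: 3 of 5 endothelium markers were lower, among them Cdh5 (-0.48), as were 2 of 6 astrocyte markers, Slc1a3 (-0.40) and Aldoc (-0.23). The astrocyte markers summed to 1490 to 1740 CPM in E3/3 D4F and 1520 to 2260 CPM in E3/3 PBS. The part of these cells in the values was not tested. All calls of this paragraph were lost with depth class in the model, in the libraries above 26 M counts and with the compared groups fitted alone, where 0 genes of the whole table were called. D4F in E4/4 called none of the genes of these pathway and marker lists.

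The difference between the D4F effects in E4/4 and in E3/3 was tested directly, and called 0 of the 42 genes and 0% of all genes, with 4 of the 42 (9.52%) at an unadjusted p under 0.05, against 10.4% of all genes. DESeq2 and limma-voom also called 0 of the 42. Litaf had the largest value, -0.45 (SE 0.105, edgeR adjusted p = 0.257), and reached an adjusted p of 0.0148 without E3/3 PBS female 4. Atp6v0a1 followed with 0.22 (adjusted p = 0.302), Hexa with 0.22, Lamp1 with 0.13 and Map1lc3a with -0.24. The Nagpa effect differed by -0.12 (95% interval -0.32 to 0.08), so these data do not separate its response to D4F in the 2 genotypes.

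Under D4F, E4/4 against E3/3 called 0 of the 42 genes, against 0.00493% of all genes, which is 1 gene. At an unadjusted p under 0.05 there were 8 of the 42, against 13.8% of all genes. Ctso came closest, with a lowest value of 35.6, a median of 36.9 and a highest of 42.4 CPM in E4/4 D4F, against 27.2, 30.5 and 34.6 CPM in E3/3 D4F. These groups did not overlap, as for 0.202% of all genes, and the log2 difference was 0.30 (SE 0.0573, edgeR adjusted p = 0.0535). With depth class in the model it was the 1 gene called, and DESeq2 called it together with Atp6v0a1. Atp6v0a1 gave -0.18 (adjusted p = 0.157), Nagpa -0.23, Mcoln1 -0.15 and Neu1 -0.15, while Litaf gave -0.07.

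Last, E4/4 D4F mice were set against E3/3 PBS mice, a comparison in which genotype and treatment differ together and cannot be told apart. Of the 42 genes 11 were called (26.2%), 3 higher and 8 lower, against 19.3% of all genes, 9.54% higher and 9.8% lower. Nagpa was among them, with a highest value of 11.3 CPM in E4/4 D4F and a lowest of 11.4 CPM in E3/3 PBS, so the groups did not overlap (log2 -0.44, SE 0.0736, edgeR adjusted p = 0.000241). Atp6v0a1 (-0.35, adjusted p = 0.000108) and Ctso (0.32, adjusted p = 0.00045) did not overlap either, and the same held for 2.01% of all genes. These 3 were also the ones called with depth class in the model, at -0.41, -0.28 and 0.29. They made up 7.14% of the 42 genes there, against 1612 of all 20298 genes called. With GC and length trends removed, Nagpa was -0.22 (adjusted p = 0.0419) and Ctso 0.15, no longer called (adjusted p = 0.0931).

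The other 8 calls were Ctsz (-0.33), Mcoln1 (-0.22), Neu1 (-0.22), Atg5 (0.20), which helps attach LC3 to membranes, Lamp2 (0.28), Map1lc3b (-0.23), Ctsb (-0.23) and Tfe3 (-0.15). Litaf was not called (0.115), and in the libraries above 26 M counts none of the 42 genes was. This comparison shares its libraries with the ones above: its E3/3 PBS mice stood in the genotype comparison and its E4/4 D4F mice in that of D4F in E4/4. Markers again differed: 3 of 6 neuron markers and 5 of 5 blood markers were lower.

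The pathway lists of the same comparison stand against 19.3% of all genes called, 9.54% higher and 9.8% lower. With depth class in the model 1612 of all 20298 genes were called. In the libraries above 26 M counts 0 genes of the whole table were called. Of 35 other hydrolases 2 were higher, Galc (0.22) and Idua (0.21), and 6 lower, among them Lgmn (-0.24). Of the other membrane proteins 6 were higher, led by Cd164 (0.36) and Tmem106b (0.35), and 2 lower, Tpcn1 (-0.21) and Tpcn2 (-0.30). Of the other pump subunits Atp6v1h (0.28) and Atp6ap2 (0.23) were higher, and Atp6v1g2 (-0.46) and Atp6v1d (-0.20) lower. Of the sorting genes 6 were higher, led by Vps4b (0.22) and Stam (0.28), and 6 lower, led by Vps18 (-0.36) and Hgs (-0.26). Of the other autophagy genes 2 were higher, Gabarapl2 (0.33) and Atg10 (0.32), and 7 lower, led by Calcoco1 (-0.23) and Atg4d (-0.19). Of the nutrient control genes 7 were higher, led by Rragd (0.43) and Rragb (0.31), and 3 lower, led by Tsc2 (-0.30) and Lamtor1 (-0.20).

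Single libraries stood apart for several genes. The median deviation of the 42 genes from their means, in log2 CPM, ran from -0.07 to 0.05 over E4/4 D4F libraries, -0.07 to 0.07 over E4/4 PBS, -0.03 to 0.07 over E3/3 D4F and -0.03 to 0.10 over E3/3 PBS. E4/4 PBS female 1, below 26 M counts, was high for Atp6v0a1 (525 CPM), Atp6v1a (439 CPM), Atp6v1b2 (678 CPM), Ctsb (731 CPM), Neu1 (76.5 CPM) and Vps35 (158 CPM) and low for Ctso (30.8 CPM) against the rest of its group. Leaving it out kept the count of genotype calls in vehicle mice at 13 but changed the genes: Hexa was no longer called.

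**Figure D5:**
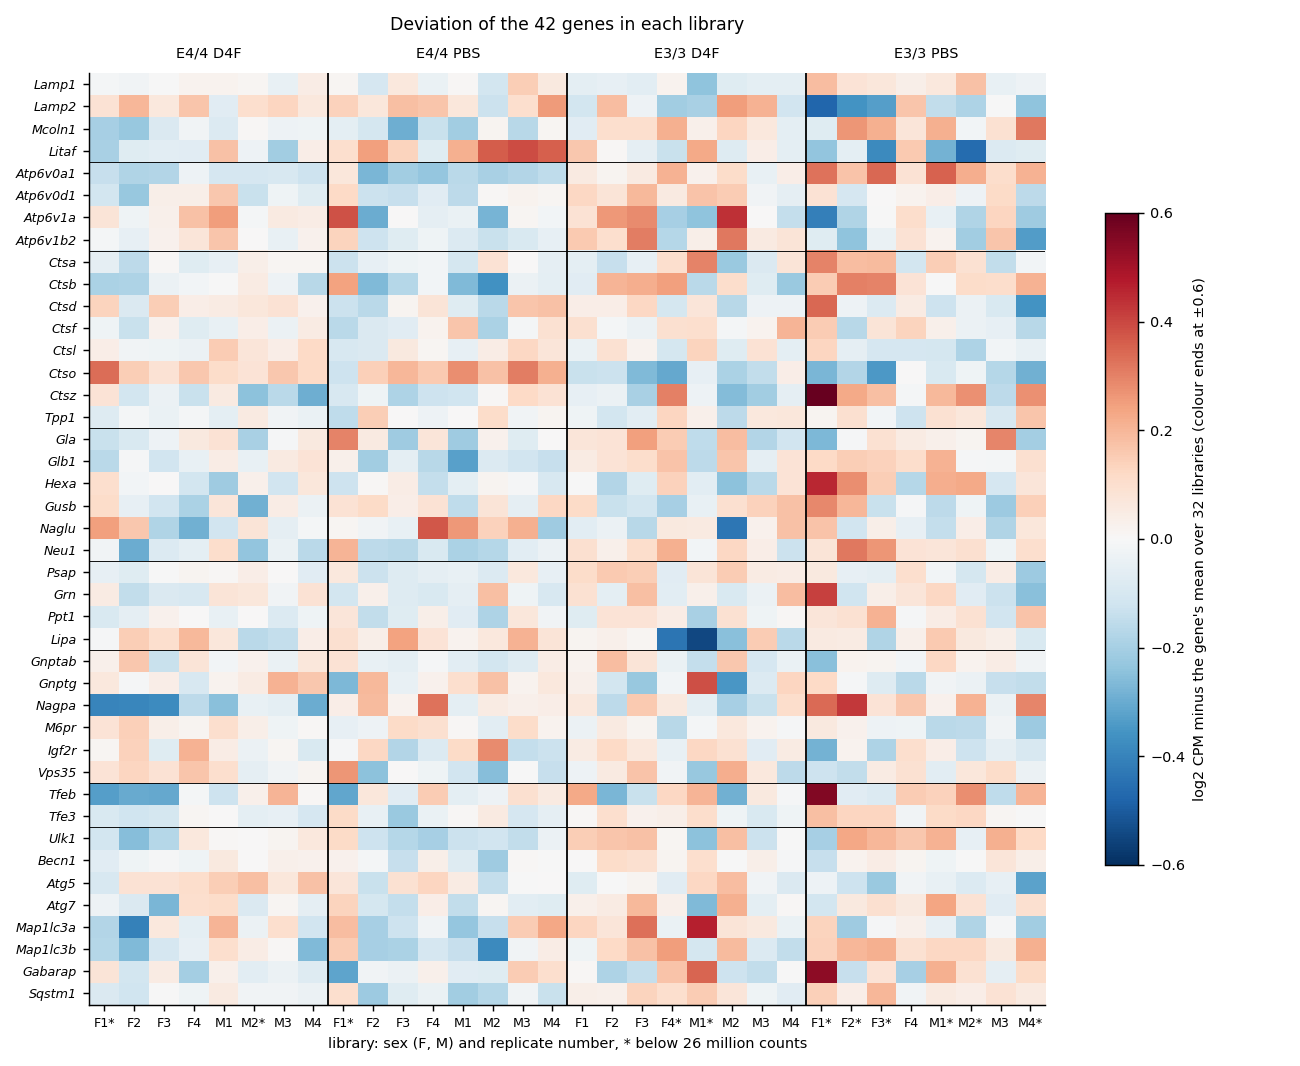
Deviation of log2 CPM of each gene from its mean over 32 libraries, red above and blue below, with genes by role in rows and libraries by group, sex and replicate in columns, starred below 26 M counts. Nagpa is blue in E4/4 D4F (8.88 to 11.3 CPM), and E4/4 PBS female 1 differs from its group for Atp6v0a1 (525 CPM) and Ctso (30.8 CPM).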

How the data were processed

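The authors deposited 1 table of raw read counts per gene for 32 libraries, and every value was a whole number. Per the submitters' processing notes, Trimmomatic, HISAT2, featureCounts and the mouse build GRCm38 were used. What version, annotation or strand setting each used was not given in the sources used. The tests used edgeR 4.0.16 under R 4.3.3: filterByExpr over 8 groups (minimum count 10, minimum total 15) kept 20298 genes, TMM scaling, robust quasi-likelihood fits with 1 coefficient per group, two-sided F tests and Benjamini-Hochberg adjustment over all genes, called below 0.05. Comparisons average the sexes unless a sex is named. CPM is TMM-scaled, the 95% intervals are the estimate ± 1.96 SE, and 19173 tested genes (94.5%) had a length and GC content from GENCODE on GRCm38. Total counts ranged from 17.77 to 45.06 M, which sets the counting precision.

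The genes and lists were chosen with earlier results of these data known, Nagpa and Litaf among them, so no pattern shown before counts as independent support. The text names, in each comparison, the called members by p up to 12 (Hexa, the 13th by genotype, by its values alone), or else the 5 with the smallest p, Nagpa and Litaf throughout, every member by level and genotype difference, and of each other list the 2 called genes with the smallest p each way. Results for some genes of the other lists are not reported here. Values of other members are given where a result turned on them. Alternatives were DESeq2 1.42.0 size factors and test, limma 3.58.1 voom, no filter, a replicate block, depth class, higher-depth libraries, thinning, GC and length trends, only the compared groups and each library left out. The test between depth classes was chosen after seeing the data.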

Additional observations from a re-analysis of the deposited data

Results flagged for a closer look

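Within each group of 8, a highest or lowest library that stood apart from the nearest other by more than Dixon's 95% limit was sought for every gene. Chance gives about 1 in 20, or 8.4 of the 168 combinations of gene and group examined, and 14 were found, 13 of them in libraries below 26 M counts.

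In E4/4 D4F, female 1 was high for Ctso (42.4 CPM) and low for Atg5 (19.2 CPM). In E4/4 PBS, female 1 was high for Atp6v0a1 (525 CPM), Atp6v1a (439 CPM), Atp6v1b2 (678 CPM), Neu1 (76.5 CPM) and Vps35 (158 CPM) and low for Ctso (30.8 CPM), and male 2, the one deeper library, was high for Grn (66.7 CPM). In E3/3 D4F, male 1 was low for Lamp1 (271 CPM), and female 4 was high for Ctsz (66.3 CPM) and low for M6pr (86.8 CPM). In E3/3 PBS, female 1 was high for Ctsz (89.0 CPM) and low for Gnptab (60.3 CPM). The part of depth in these values was not tested for single libraries.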

How the results depend on the processing

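Depth limits the genotype result, since 6 of 8 E3/3 PBS libraries but 1 of 8 E4/4 PBS libraries held under 26 M counts. Whether depth, base composition or cell content bears on it most was not tested. With depth class in the model the genotype calls in vehicle mice were 6 (females 1, males 0), those of E4/4 D4F against E3/3 PBS 3 and those of genotype under D4F 1. In the libraries above 26 M counts alone, each of these counts in vehicle mice was 0, as was that of E4/4 D4F against E3/3 PBS. There, of the called genes, Nagpa and Litaf, 6 values reversed: by genotype in vehicle mice Ctsz 0.0582, Hexa 0.122 and Nagpa 0.0535, Litaf -0.0235 for D4F in E3/3 and -0.0521 for E4/4 D4F against E3/3 PBS, and Lamp2 -0.0148 in vehicle females. Over all 42 genes 14 had the opposite sign by genotype in vehicle mice there, 4 did in the fit with depth class, and 10 after removal of GC and length trends. With GC and length trends removed, Nagpa reversed to 0.082 by genotype, E4/4 D4F against E3/3 PBS gave 7 calls, vehicle females 2 and D4F in E3/3 1. DESeq2 size factors gave 1 for D4F in E3/3. DESeq2's test gave 3 there, 2 for genotype under D4F and 5 in vehicle males. Fitting the compared groups alone gave 1 for genotype under D4F and 0 in vehicle females. The cause of each was not tested beyond the alternative's own construction. With each library left out, the calls ranged from 9 to 14 by genotype in vehicle mice, 0 to 7 for D4F in E3/3, 0 to 1 for the difference of the D4F effects and for genotype under D4F, 8 to 14 for E4/4 D4F against E3/3 PBS, 1 to 10 in vehicle females and 2 to 3 in vehicle males. Genotype under D4F gave 1 without E3/3 PBS female 1, female 4, male 3 or male 4, E3/3 D4F female 2 or male 4, E4/4 PBS female 1 or E4/4 D4F female 4. Vehicle females gave 10 without E4/4 PBS female 1, 9 without E3/3 PBS female 4, 3 without E4/4 PBS female 2, 2 without E3/3 PBS female 1, 2 or 3, and 1 without E4/4 PBS female 3 or 4. D4F in E4/4, sex and the difference between sexes gave 0 throughout. Deviations of same-numbered libraries from their groups had a median correlation of 0.00588 over 112 pairs (-0.617 to 0.542). For libraries with different numbers it was -0.0162 over 336 pairs. These values show no pairing by number, but a median cannot exclude it. A fit with the replicate block gave 12 genotype calls in vehicle mice.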
